A study of Mus musculus with 6 samples.

Results

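Arid3a, the construct that supplied it and its relatives in the ARID family were followed through RNA sequencing of mouse fetal liver cells in which Arid3a was switched on. The members were the entry for a 3xFLAG-tagged mouse Arid3a construct, which the authors added to their gene table, and 9 ARID genes: Arid3a, Arid3b, Arid1a, Arid1b, Arid2, Arid4a, Arid4b, Arid5a and Arid5b. They were taken by name and make 10 of the 53802 entries in the table. All 9 genes passed the filter on low counts and were among the 13631 genes tested.

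The cells were taken at E12.5-13.5 from mice of a B6J.129(Cg) strain (Fezh/J) that holds CAG-cas9*,-EGFP, that is Cas9 and EGFP driven by the CAG promoter, at Gt(ROSA)26Sor. All 6 libraries came from cells that also held a guide against Gata1 and a transgene for the microRNA miR-125b, and that had been given doxycycline at 1 μg/mL for 48 h. They differed in the third transgene, which was doxycycline-inducible and encoded either FLAG-tagged Arid3a (Arid3a-FLAG, 3 libraries) or LUC (LUC, 3 libraries). The design text calls them Gata1s cells, after a truncated GATA1, the transcription factor of red cells and megakaryocytes, and no library without the Gata1 guide or without miR-125b was analysed here. Every difference below is therefore one between these 2 constructs in edited, miR-125b-carrying cells. Nothing in the labels tells whether the libraries of a group stem from different animals or cultures, and each p-value sets a difference against a spread between libraries that may be technical.

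The ARID (AT-rich interaction domain) is a DNA-binding fold, and the proteins that carry it share little else. ARID3A and ARID3B are transcription factors that prefer AT-rich DNA; ARID3A is also known as Bright, for its binding beside the immunoglobulin heavy chain locus in B cells, and loss of Arid3a in mice impairs fetal liver blood formation. ARID1A, ARID1B and ARID2 are subunits of the SWI/SNF chromatin remodelling complexes, ARID4A and ARID4B bind the retinoblastoma protein and the SIN3 co-repressor, and ARID5A and ARID5B act on messenger RNA stability and histone methylation. miR-125b is a microRNA of blood stem and progenitor cells that lowers its targets by pairing its seed, the bases near its 5′ end, with sites in their 3′ untranslated regions (3′ UTRs), and human ARID3A has been reported as such a target.

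Shown here, because both miR-125b and Arid3a were supplied to these cells, are the miR-125b seed and its matches in the endogenous Arid3a gene. Whether the construct holds any of this 3′ UTR is not stated in the labels. The mature microRNA is given first, with the seed in capitals, as RefSeq gives it on GRCm38.p6 at chr9:41581940-41581961 and again at chr16:77646279-77646300, both on the plus strand. The lines after it are the 3′ UTR sites of Arid3a in the GENCODE M21 transcript ENSMUST00000019708.11 (chromosome 10, plus strand, GRCm38), with the bases that pair with the seed in capitals.
mmu-miR-125b-5p: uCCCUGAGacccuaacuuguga
Arid3a site at chr10:79952873-79952894: gtggcctcctgtgcCTCAGGGa
Arid3a site at chr10:79952948-79952969: aacaacgggcctagCTCAGGGc
Arid3a site at chr10:79953806-79953827: ccatgggtaactggCTCAGGGa
Arid3a site at chr10:79954042-79954063: gcgccagatcctaaCTCAGGGg
Arid3a site at chr10:79954229-79954250: tgtccacctggtacCTCAGGGc
Arid3a site at chr10:79954265-79954286: gtgagacacccaaaCTCAGGGc

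The 3′ UTR of Arid3a, 3082 bases long, held the letters CTCAGGG 6 times, from 951 to 2343 bases after the stop codon. Of the 11586 tested genes with an annotated 3′ UTR, 15.9% held the letters at least once, and 3 genes, Arid3a among them, held them 6 times or more. Among the 3492 genes with a 3′ UTR of at least 2000 bases, Arid3a was the 1 gene that reached its own density of matches. Its paralogue Arid3b held 2 matches in 2160 bases and Arid1b held 1 in 4569 bases, which are printed next to show the shared letters. The other 6 members, Arid5b among them, held none in the longest annotated 3′ UTR of each gene.
Arid3b site at chr9:57791953-57791974, minus strand: tcttaaattcattcCTCAGGGc
Arid3b site at chr9:57791441-57791462, minus strand: agcaggtggggtgaCTCAGGGa
Arid1b site at chr17:5346864-5346885, plus strand: ttcccaaatctgacCTCAGGGa

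A match is a description of the letters and not a test of pairing. The entries of the mouse miR-125b genes, Mir125b-1 and Mir125b-2, had 0 counts in each Arid3a-FLAG library and in each LUC library, so these libraries give no reading of the microRNA itself. Matches for a second seed were counted for comparison, that of let-7a, a microRNA reported to repress Arid3a in mouse lymphoid progenitors (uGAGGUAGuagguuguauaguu, seed in capitals, chr13:48538239-48538260, minus strand, GRCm38.p6). The letters CTACCTC stood 2 times in the 3′ UTR of Arid3a, once each in Arid3b and Arid1b and in none of the other 6 members. Of all genes 10.8% held at least 1 match and 1.29% at least 2, and 1.09% of those with at least 2000 bases reached the density of Arid3a.

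Of the 6 libraries LUC library 2 stood apart. Total counts ran from 15730908 to 17014650 in the Arid3a-FLAG libraries and from 16605860 to 18249053 in the LUC libraries, so depth was alike. The groups separated along the first principal component (45.3% of variance), and LUC library 2 lay away from the rest along the second (24.0%). Its levels moved with the exon length of genes. Relative to the mean of the 6 libraries its median gene was 0.34 higher on the log2 scale for genes with up to 1.5 kb of exon. For genes with over 12 kb it was 0.29 lower. The median in each length class of the other 5 libraries was between -0.13 and 0.09. Within that range the Arid3a-FLAG libraries rose with length, from -0.066, -0.126 and -0.099 in the shortest class to 0.077, 0.090 and 0.085 in the longest. LUC library 1 went from 0.039 to 0.024 and LUC library 3 from -0.021 to 0.021. A smaller trend with length thus also lay between the groups, and leaving out LUC library 2 does not take it away. Every member has at least 5.56 kb of exon, and LUC library 2 was the lowest of the LUC libraries for all 9 members, against 59.9% of genes with at least 5 kb of exon and 40.1% of all genes tested. It was the lowest of all 6 libraries for 7 of them. The plot of deviations by exon length shows these patterns. Values are given with and without this library for the members and for a part of the other genes and lists. Other list counts that moved without it are covered in the closing section, as ranges over the fits with 1 library left out. Which step of the work made LUC library 2 differ was not tested.

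**Figure D1:**
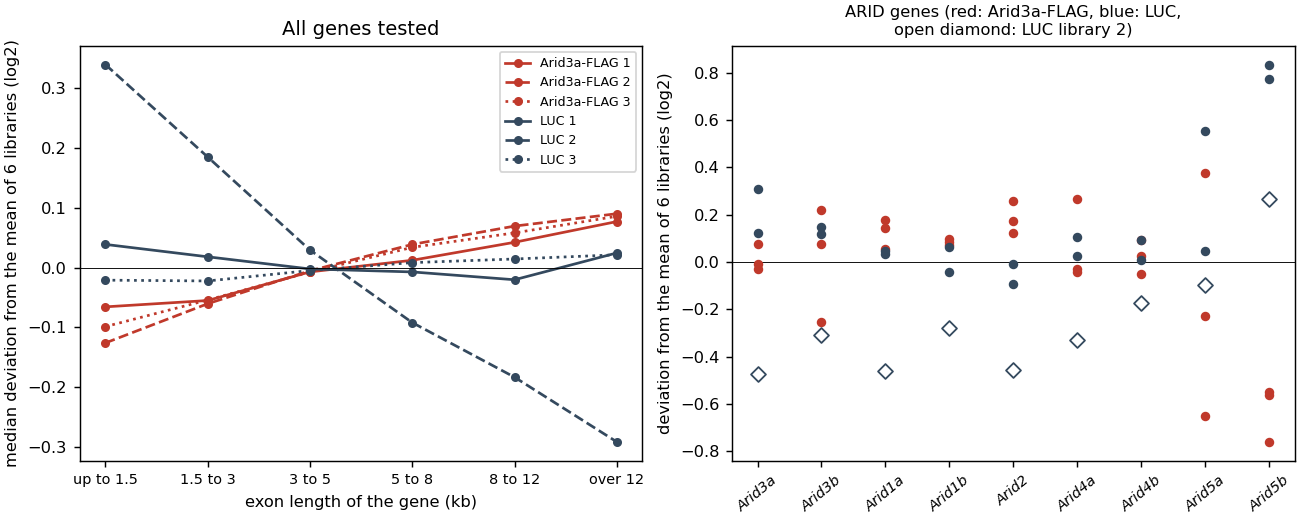
Left, the median deviation of all tested genes from the mean of the 6 libraries (log2) in 6 classes of exon length in kb, 1 line per library; right, the same deviation for each ARID gene, 1 point per library, Arid3a-FLAG in red, LUC in blue and LUC library 2 as an open diamond. LUC library 2 runs from 0.34 in the shortest class to -0.29 in the longest, and its diamond is the lowest LUC point for all 9 members.

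The construct was read in all Arid3a-FLAG libraries and in no LUC library. Its counts were 3348, 3044 and 2758 in the Arid3a-FLAG libraries, against 0, 0 and 0 in the LUC libraries. The Arid3a-FLAG libraries lay close to each other, with a highest-to-lowest ratio of counts of 1.21. As CPM, the counts scaled to a common library total, these were 209.0, 178.9 and 175.4 with Arid3a-FLAG, a mean of 187.8 ± 18.5 (SD, n = 3) and a coefficient of variation of 9.85%. With a floor of 3 counts for a LUC library at 0, the lowest Arid3a-FLAG library was at least 971-fold higher than the highest LUC floor. Counting intervals and floors given here cover counting error only.

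The Arid3a gene itself (ENSMUSG00000019564, chr10:79927043-79955018, plus strand) was at 203, 234 and 204 counts with Arid3a-FLAG, against 276, 141 and 260 counts with LUC. In CPM scaled by TMM (trimmed mean of M values) factors, used for all genes from here on, that was 12.6, 13.6 and 12.8 with Arid3a-FLAG and 15.9, 9.22 and 14.03 with LUC. The Arid3a-FLAG libraries lay between the lowest and the highest LUC library, so the groups overlapped. The log2 fold change was -0.01 (SE 0.19, 95% interval -0.42 to 0.40, edgeR quasi-likelihood adjusted p = 0.977), an interval that runs in folds from 0.745 to 1.32; without LUC library 2 it was -0.19. A p that misses the threshold does not show that the gene stayed level.

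In the Arid3a-FLAG libraries the construct entry outnumbered the gene entry in counts 16.5, 13.0 and 13.5 times over, and held 94.3%, 92.9% and 93.1% of the counts on both entries. These counts were not scaled by length, and no length of the construct entry was used. The ratios and shares are therefore of reads and not of transcripts. With the counts of both added up, Arid3a was higher with Arid3a-FLAG by 3.92 on the log2 scale (SE 0.17, 95% interval 3.54 to 4.31, adjusted p = 3.8e-06), and by 3.74 without LUC library 2. Only the Arid3a-FLAG cells were given the construct, so a rise of this sum was set by the design. Its size is a description, and its p is not a test of the Arid3a gene. The sources used here do not give how the authors' counting divided reads common to the construct and the gene. In the LUC libraries the gene entry had 276, 141 and 260 counts and the construct entry 0, so no gene reads were put on the construct there. Common reads may still be missing from both entries, and construct reads on the gene entry cannot be told from its own. The ratio of the entries and the -0.01 for the gene alone are both open to this.

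**Figure D2:**
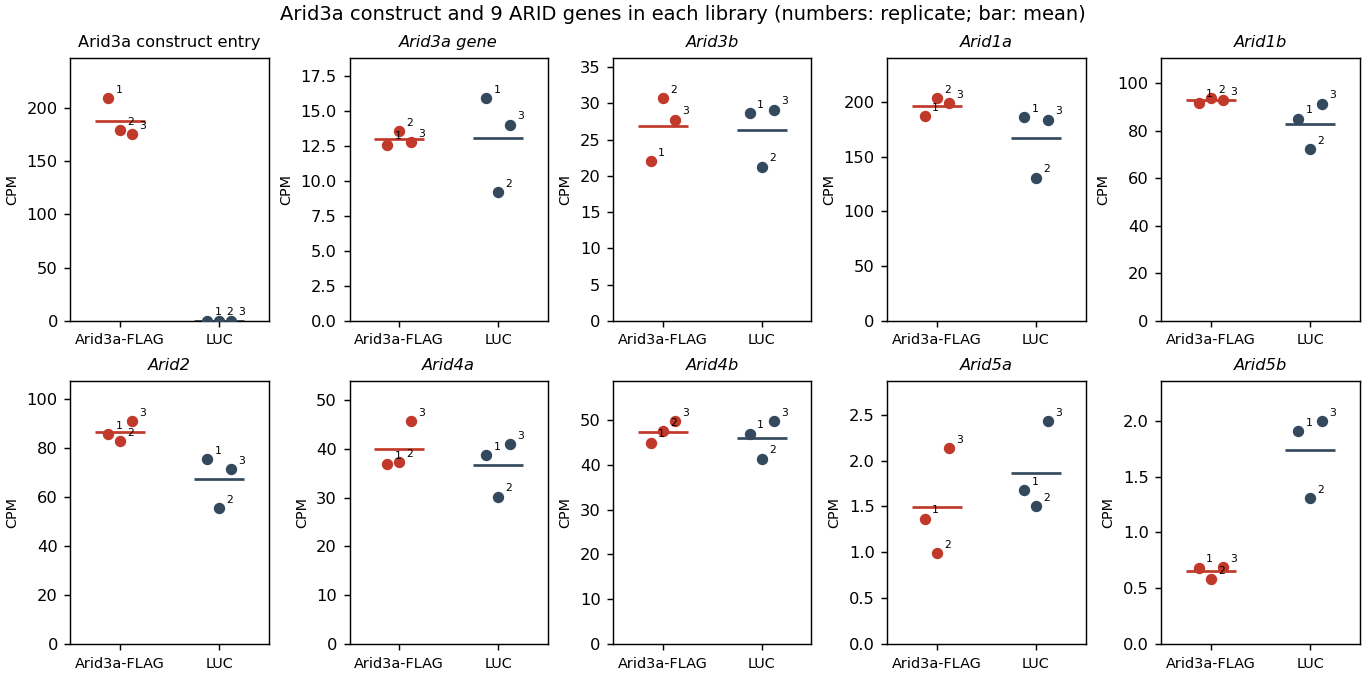
Level of the Arid3a construct entry and of each ARID gene in every library, in CPM on linear axes that start at 0, with Arid3a-FLAG left of LUC in each panel, points for libraries with their replicate number and a bar at the mean of 3. The construct lies between 175.4 and 209.0 CPM with Arid3a-FLAG and at 0 with LUC, and Arid5b is the gene whose Arid3a-FLAG libraries all sit under 0.7 CPM and below every LUC library.

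The plot of levels by library shows the construct, the gene and the relatives side by side. Of the 9 genes 1 passed the adjusted threshold of 0.05, Arid5b, which fell, and none was called higher with edgeR, DESeq2 or limma-voom. Over all genes tested, 7.29% passed, 3.43% higher and 3.87% lower, so 1 of 9 is near the background share. The members' median log2 fold change was 0.04, against -0.03 for all genes tested; it was -0.015 against 0.0015 without LUC library 2, and -0.041 against -0.010 with a correction for exon length. Without adjustment, 2 members had p under 0.05, Arid2 and Arid5b, against 25.6% of all genes. The groups did not overlap for 4 members, Arid1a, Arid1b and Arid2 above LUC and Arid5b below it, against 33.1% of all genes tested, 16.6% above and 16.5% below. With 6 libraries of one tissue, fewer cells of a type and less RNA per cell cannot be told apart.

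Arid3b, the closest relative of Arid3a (ENSMUSG00000004661, chr9:57790353-57836793, minus strand), was not called. It had 22.04, 30.7 and 27.7 CPM with Arid3a-FLAG, against 28.6, 21.3 and 29.1 CPM with LUC. The lowest libraries were LUC library 2 and Arid3a-FLAG library 1, and the groups overlapped. Its log2 fold change was 0.03 (SE 0.16, 95% interval -0.32 to 0.37, adjusted p = 0.935), and it was -0.09 without LUC library 2 and -0.05 with a correction for exon length. Over the 6 libraries the log2 ratio of Arid3b to Arid3a (per length) averaged 0.51 ± 0.20 with Arid3a-FLAG and 0.51 ± 0.18 with LUC, a difference of 0.00 (exact two-sided permutation p = 1, n = 3 each). Some 4.51% of the exon bases of Arid3b overlap the antisense gene Gm17231, and whether counting used the strand is not given.

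Among the SWI/SNF subunits Arid1a, Arid1b and Arid2, all Arid3a-FLAG libraries lay above every LUC library without passing the test. Arid1a (ENSMUSG00000007880, chr4:133679008-133756769, minus strand), the DNA-binding subunit of the canonical BAF form of the complex and a tumour suppressor in many human cancers, had 186.8, 203.4 and 198.9 CPM with Arid3a-FLAG, against 185.8, 130.7 and 183.8 CPM with LUC. The gap rests on LUC library 2, since the lowest Arid3a-FLAG library was close to LUC libraries 1 and 3. The log2 fold change of Arid1a was 0.24 (SE 0.13, 95% interval -0.05 to 0.52, adjusted p = 0.281), and 0.10 without that library.

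Arid1b, whose protein takes the place of ARID1A in a share of BAF complexes, lies at chr17:4994332-5347656, plus strand (ENSMUSG00000069729). It had 91.8, 93.6 and 92.8 CPM with Arid3a-FLAG, against 84.9, 72.1 and 91.3 CPM with LUC. The Arid3a-FLAG libraries were nearly level with each other and with LUC library 3. Its log2 fold change was 0.16 (SE 0.10, 95% interval -0.06 to 0.38, adjusted p = 0.331), and 0.09 without LUC library 2. The log2 ratio of Arid1a to Arid1b per length averaged 1.22 ± 0.05 with Arid3a-FLAG and 1.13 ± 0.14 with LUC, with overlapping groups (difference 0.08, exact two-sided permutation p = 0.5).

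Arid2, the ARID subunit of the PBAF form of SWI/SNF (ENSMUSG00000033237, chr15:96287518-96404992, plus strand), came closest to a call among the members above LUC. It had 85.8, 83.0 and 91.1 CPM with Arid3a-FLAG, against 75.6, 55.5 and 71.4 CPM with LUC. All Arid3a-FLAG libraries were higher than all LUC libraries, also with LUC library 2 set aside. On the log2 scale the change was 0.36 (SE 0.12, 95% interval 0.10 to 0.62, adjusted p = 0.0899), which misses the threshold. Without LUC library 2 the change was smaller, 0.25, and passed (adjusted p = 0.0323), as it did with no filter on low counts (0.37, adjusted p = 0.0169); it did not pass with DESeq2 (adjusted p = 0.0526), with limma-voom (0.0869) or with the exon length correction (0.25, adjusted p = 0.0954).

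Arid4a, whose protein binds the retinoblastoma protein (ENSMUSG00000048118, chr12:71015990-71098592, plus strand), had 36.9, 37.2 and 45.6 CPM with Arid3a-FLAG, against 38.7, 30.2 and 40.9 CPM with LUC. Its relative Arid4b (ENSMUSG00000039219, chr13:14063232-14199603, plus strand), a subunit of the same SIN3 complex, had 44.9, 47.5 and 49.7 CPM with Arid3a-FLAG, against 46.9, 41.3 and 49.7 CPM with LUC. For both genes the groups overlapped and the lowest value was that of LUC library 2. The log2 fold change was 0.12 for Arid4a (95% interval -0.18 to 0.42, adjusted p = 0.603; 0.02 without LUC library 2) and 0.04 for Arid4b (95% interval -0.18 to 0.27, adjusted p = 0.825), the second of which was -0.01 without LUC library 2 and -0.12 with the exon length correction. Their log2 ratio per length, Arid4a to Arid4b, averaged 1.34 ± 0.12 with Arid3a-FLAG and 1.26 ± 0.10 with LUC (difference 0.08, exact two-sided permutation p = 0.6).

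Arid5b, a partner of the histone demethylase PHF2 with roles in fat cells and lymphocytes and a risk gene for childhood lymphoid leukaemia in humans, was the member that fell (ENSMUSG00000019947, chr10:68092520-68278740, minus strand). Its counts were 11, 10 and 11 with Arid3a-FLAG, against 33, 20 and 37 with LUC. In CPM that was 0.683, 0.581 and 0.691 with Arid3a-FLAG and 1.91, 1.31 and 1.997 with LUC. The Arid3a-FLAG libraries were nearly identical, each was below each LUC library, and the LUC library nearest to them was library 2. The level was 2.67-fold lower with Arid3a-FLAG, which is -1.42 on the log2 scale (SE 0.33, 95% interval -2.14 to -0.69, adjusted p = 0.0297).

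These are few reads, 10 to 11 a library with Arid3a-FLAG, and the filter on low counts was met in 2 of 3 Arid3a-FLAG libraries and in 3 of 3 LUC libraries. Arid5b passed the threshold in 8 of 8 other ways of scaling, filtering or testing the 6 libraries in which it was kept, with an adjusted p of 0.0499 when the replicate number was added as a block. The stricter filter, 5 CPM or more in 3 libraries, leaves it out. With 1 library left out at a time its log2 fold change stayed between -1.56 and -1.28. The call was kept only without LUC library 2 (-1.56, adjusted p = 0.0118) and lost in the other 5 fits, where the adjusted p ran from 0.0784 to 0.145.

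Arid5a, which encodes a protein that binds and stabilises messenger RNAs such as that of interleukin 6 (ENSMUSG00000037447, chr1:36307733-36324029, plus strand), was as scarce. Its counts were 22, 17 and 34 with Arid3a-FLAG, against 29, 23 and 45 with LUC, or 1.37, 0.987 and 2.13 CPM with Arid3a-FLAG and 1.68, 1.504 and 2.43 CPM with LUC. The groups overlapped, and replicate 3 was the highest in each. The log2 fold change was -0.33 (SE 0.35, 95% interval -1.11 to 0.44, adjusted p = 0.583; -0.45 without LUC library 2), an interval that reaches into that of Arid5b and also holds 0. The log2 ratio of Arid5a to Arid5b per length was 0.68, 0.45 and 1.31 with Arid3a-FLAG, against -0.50, -0.12 and -0.04 with LUC. Each Arid3a-FLAG ratio was above each LUC ratio; the difference of 1.03 had an exact two-sided permutation p of 0.1, the smallest that 3 against 3 allows, and an adjusted p of 0.4 over the 4 paralogue ratios compared.

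**Figure D3:**
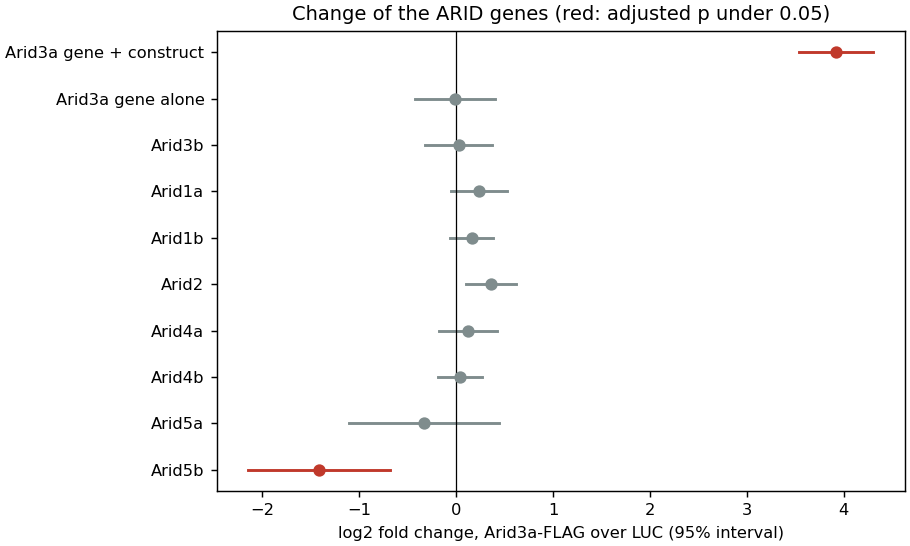
Log2 fold change of Arid3a-FLAG over LUC (horizontal axis) with its 95% interval for the Arid3a gene plus construct, the Arid3a gene alone and the other 8 ARID genes; red marks an adjusted p under 0.05. The sum of gene and construct, whose rise was set by the design, stands at 3.92 and Arid5b at -1.42, and the intervals of the other members except Arid2 include 0.

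The plot of fold changes orders the members by family. ARID3A is a DNA-binding factor and Arid5b was the called member, so its promoter was read for the letters ATTAAA and ATCAAA, AT-rich words of the kind ARID3A prefers, on both strands. The 250 bases before the annotated start of Arid5b, given 5′ to 3′ on its own strand (RefSeq, chr10:68278727-68278976, minus strand, GRCm38.p6), follow with the match in capitals.
Arid5b promoter: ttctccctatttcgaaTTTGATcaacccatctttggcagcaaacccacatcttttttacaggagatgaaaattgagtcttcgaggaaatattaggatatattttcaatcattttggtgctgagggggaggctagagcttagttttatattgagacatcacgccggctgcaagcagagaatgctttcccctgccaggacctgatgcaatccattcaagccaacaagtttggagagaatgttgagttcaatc
It is 58% A or T and holds 1 match, ATCAAA read on the opposite strand. Of 32851 promoters of the same length 20.9% hold at least 1 match, and those of Arid5a, Arid1a, Arid3b, Arid4b and Arid1b hold none. The promoters without a match are poorer in A and T, from 18.4% for 1 of Arid1a to 46% for Arid4b, which by itself makes AT-rich words rarer. Some of them, such as that of Arid1b, lie inside the gene as GENCODE M21 places it. Promoters of 6 of the 9 members were read, and those of Arid3a, Arid2 and Arid4a were not used here. No binding was measured here, and a match of these letters is not a site.

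Levels were compared between genes per kb of exon. With Arid3a-FLAG the order was Arid1a at 17.1 CPM per kb, Arid2 at 8.07, Arid1b at 7.36, Arid4a at 7.11, Arid3b at 3.36, Arid4b at 2.79, Arid3a at 2.34, Arid5a at 0.119 and Arid5b at 0.0647. With LUC it was Arid1a at 14.5 CPM per kb, Arid1b at 6.57, Arid4a at 6.52, Arid2 at 6.28, Arid3b at 3.30, Arid4b at 2.71, Arid3a at 2.35, Arid5b at 0.173 and Arid5a at 0.149. Arid1a stood above all others and the Arid5 genes below all others in both groups. Neighbours whose ranges over libraries overlapped were Arid1b and Arid4a, and Arid3b and Arid4b, in both groups. With LUC, Arid4a and Arid2, Arid4b and Arid3a, and Arid5b and Arid5a overlapped as well.

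The Arid3a gene thus had the lowest mean of the members outside the Arid5 genes. Reads that it has in common with the construct may be missing from its entry, which bears on its rank, its shares and its ratio to Arid3b. Before the construct is counted, it made up a mean of 4.84% of the summed level per length of the 9 genes with Arid3a-FLAG and 5.46% with LUC. Arid1a made up 35.4% with Arid3a-FLAG and 34.02% with LUC, and Arid5b 0.134% with Arid3a-FLAG and 0.403% with LUC. The summed level was 46.0, 48.7 and 50.3 CPM per kb with Arid3a-FLAG, against 46.4, 34.7 and 46.7 CPM per kb with LUC. Apart from LUC library 2 the libraries differed little in this sum. The choice of length matters for Arid4b, whose exons add up to 16.965 kb over all annotated transcripts: with the longest transcript as the length it ranked 4 with Arid3a-FLAG and 3 with LUC, while Arid1a kept rank 1 and Arid3a rank 7 in both groups.

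**Figure D4:**
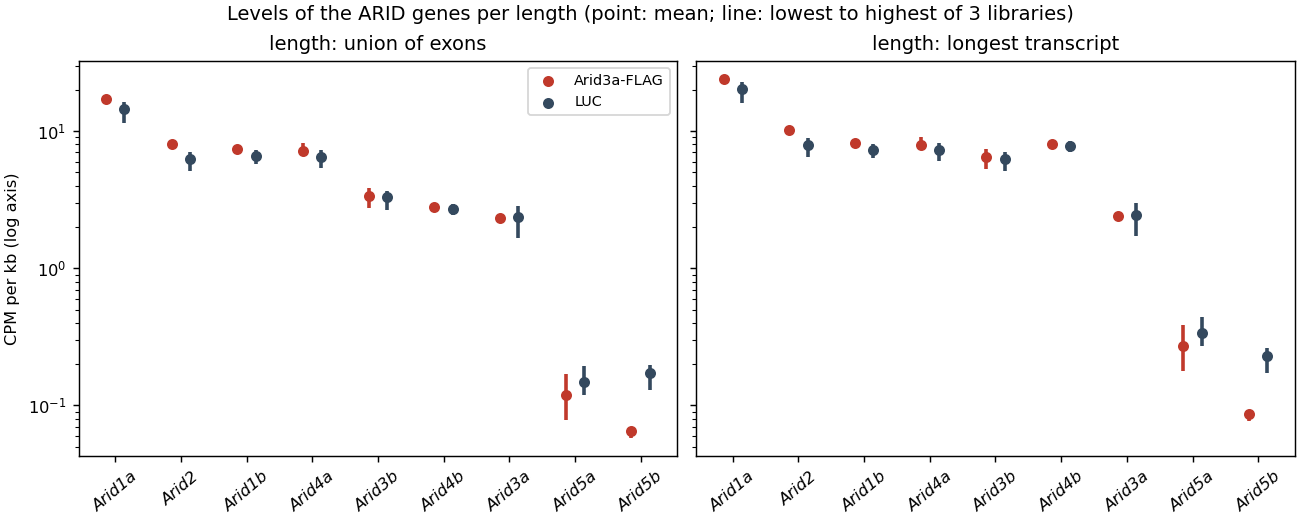
Level of each ARID gene in CPM per kb on a log axis, with exon length taken as the union of exons (left) or the longest transcript (right), Arid3a-FLAG in red left of LUC in blue, points at the mean and lines spanning the lowest to the highest of 3 libraries. Arid1a is the highest gene in both panels, the Arid5 genes the lowest, and Arid4b changes place between the panels.

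Genes with a pattern over the 6 libraries most like that of the Arid3a gene were sought by the root mean square distance in log2 CPM, each gene centred on its own mean, among 10290 genes of at least 5 mean CPM. The nearest were Fbxl20 at a distance of 0.0228, Polk at 0.0320, Zfp783, annotated as a transcribed pseudogene, at 0.0417, Ano8 at 0.0580 and Ogt at 0.0588, against a median distance of 0.296 over all genes compared and 0.154 for Arid3b. Fbxl20, an F-box protein gene, had 39.5, 41.1 and 39.8 CPM with Arid3a-FLAG, against 47.8, 28.6 and 43.8 CPM with LUC. All 5 genes shared the low value of LUC library 2 and have at least 5.55 kb of exon. The likeness is a description over 6 libraries, 3 of each group.

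The other genes that carry an ARID had log2 fold changes above 0 without a call. Of 6 such genes 4 were tested, 0 passed in either direction with edgeR or limma-voom, 2 had an unadjusted p under 0.05, and DESeq2 called 1 of them higher. Their median log2 fold change was 0.25, against -0.03 for all genes tested, and 0.18 against 0.0015 without LUC library 2. Kdm5c, a demethylase of histone H3, had 273.3, 248.0 and 247.5 CPM with Arid3a-FLAG, against 208.0, 174.5 and 219.3 CPM with LUC, with no overlap. Its log2 fold change was 0.35 (SE 0.10, adjusted p = 0.0682), and 0.28 without LUC library 2 (adjusted p = 0.0188). Kdm5a, a related demethylase, averaged 99.0 ± 0.444 CPM with Arid3a-FLAG and 82.0 ± 11.7 CPM with LUC (log2 fold change 0.27, adjusted p = 0.150; 0.18 without LUC library 2). The remaining 2, named although outside the naming rule and after their values were seen, were Jarid2, a cofactor of the Polycomb repressive complex PRC2 (0.24, adjusted p = 0.205; 0.19 without LUC library 2), and Kdm5b (0.21, adjusted p = 0.379; 0.061 without it). Arid3c, the remaining relative of Arid3a, had at most 1 count in an Arid3a-FLAG library and at most 4 counts in a LUC library and was not tested.

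Among 25 SWI/SNF subunits, the complexes of ARID1A, ARID1B and ARID2, 24 were tested, 1 was higher and 1 lower (8.33% called, against 7.29% of all genes), and the median log2 fold change was 0.00. The one that rose was Pbrm1, the polybromo subunit that shares the PBAF complex with ARID2. It had 160.8, 163.3 and 150.9 CPM with Arid3a-FLAG, against 129.2, 107.6 and 119.1 CPM with LUC. Every Arid3a-FLAG library was above every LUC library. The log2 fold change was 0.42 (SE 0.09, adjusted p = 0.0259), 0.36 without LUC library 2 (adjusted p = 0.0051) and 0.32 with the exon length correction (adjusted p = 0.0246). The call was kept in 3 of 6 fits with 1 library left out, where the adjusted p reached 0.144. Among the other subunits particular to PBAF, chosen for mention once their values were known, Brd7 had a log2 fold change of -0.04 (adjusted p = 0.810) and Phf10 one of -0.12 (adjusted p = 0.494). The subunit that fell was Bcl7c, with 43.6, 41.5 and 43.6 CPM with Arid3a-FLAG, against 57.3, 66.2 and 51.8 CPM with LUC (log2 fold change -0.44, SE 0.11, adjusted p = 0.0328). It kept its call in 2 of 6 fits with 1 library left out, where the adjusted p reached 0.161.

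The complexes and partners of the ARID4 proteins gave 1 call between them. Of 16 SIN3 complex genes 0 were called with edgeR, DESeq2 or limma-voom, and 1 had an unadjusted p under 0.05. Their median log2 fold change was -0.07, and 0.0028 without LUC library 2. The most abundant, Rbbp7 and Rbbp4, histone-binding proteins, had log2 fold changes of -0.11 (adjusted p = 0.589) and -0.08 (adjusted p = 0.711). Without LUC library 2 these were 0.048 and 0.070. Of 13 genes of the RB and E2F families 1 was called, Rb1, the retinoblastoma gene, which is 7.69% against 7.29% of all genes, and their median was 0.14. Rb1 had 245.9, 244.6 and 254.3 CPM with Arid3a-FLAG, against 193.5, 195.6 and 208.7 CPM with LUC. The groups stood well apart and LUC library 2 was not the lowest. The log2 fold change was 0.32 (SE 0.08, adjusted p = 0.0466), but when libraries were left out in turn the call was kept in only 2 of 6 fits, where the adjusted p reached 0.189. With all 6 libraries it was lost with the replicate block (adjusted p = 0.0947) and with upper quartile factors (adjusted p = 0.0517). Exons of Rb1 overlap the opposite-strand genes Rcbtb2 and Lpar6 over 8.11% and 6.78% of their bases. E2f1, named after its values were seen as the E2F that ARID3A (E2FBP1 in humans) was first described to bind, had a log2 fold change of -0.06 (adjusted p = 0.733).

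PRC2 and its accessory subunits, which JARID2 joins, gave 0 calls among 9 genes with edgeR, DESeq2 and limma-voom. Of these genes 2 were under an unadjusted p of 0.05, and the median log2 fold change was -0.09. Without LUC library 2, 4 of the 9 were called lower, as were 7.83% of all genes in that fit, and the median was 0.013. The most abundant, Suz12 and Aebp2, had log2 fold changes of 0.19 (adjusted p = 0.211) and 0.06 (adjusted p = 0.673). Of 13 partners and regulators reported for ARID proteins 0 were called with the same 3 tools, 2 had an unadjusted p under 0.05 and the median was -0.04. The most abundant, Trp53 and Gtf2i, the second of which encodes the TFII-I protein that acts with ARID3A in B cells, had log2 fold changes of -0.12 (adjusted p = 0.427) and 0.16 (adjusted p = 0.294). Another 3 of them were named for their role, after their values were seen: Phf2, the partner of ARID5B, at 0.07 (adjusted p = 0.721), Il6, whose message ARID5A stabilises, at -0.57 (adjusted p = 0.215), and Btk, the kinase that binds ARID3A in B cells, at 0.22 (adjusted p = 0.131).

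Other proteins that bind AT-rich or matrix-attachment DNA gave 0 calls among 11 tested genes with edgeR and limma-voom and 1 lower with DESeq2, with 2 under an unadjusted p of 0.05 and a median of 0.02. Hmgb2 had a log2 fold change of -0.19 (adjusted p = 0.366) and Hmgb3 one of 0.25 (adjusted p = 0.127). Without LUC library 2 Hmgb3 passed the threshold (0.35, adjusted p = 0.0037). Genes of the let-7 and fetal progenitor axis gave 1 call among 10 tested, 10% against 7.29% of all genes, a fall of Igf2bp2, an RNA-binding protein of fetal cells. It had 3.29, 2.73 and 3.26 CPM with Arid3a-FLAG, against 5.61, 5.43 and 6.86 CPM with LUC, with no overlap (log2 fold change -0.95, SE 0.20, adjusted p = 0.0199); the call was kept in 1 of 6 fits with 1 library left out. Of 11 targets reported for ARID3A outside blood, mostly genes of trophoblast and embryonic stem cells, 6 had 0 counts in every library and 1 was tested, Krt18, at 0.803 ± 0.395 CPM with Arid3a-FLAG and 1.78 ± 0.596 CPM with LUC (log2 fold change -1.14, adjusted p = 0.130). These libraries therefore say little of that list.

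Markers of blood and other cells moved between the groups beside these results, and their part in the fall of Arid5b or in the other values was not tested. Over all genes tested 7.29% were called, 3.43% higher and 3.87% lower. Of 16 megakaryocyte markers 6 were higher and 1 lower, 43.75% called. Among them were Thbs1 at a log2 fold change of 2.58 (adjusted p = 0.00067), Itgb3 at 0.97 (adjusted p = 0.001) and Ppbp at -1.01 (adjusted p = 0.003). The groups did not overlap for 12 of the 16, in either direction, against 33.1% of all genes tested. The summed level of the 16 markers was 7561 to 8092 CPM with Arid3a-FLAG and 7003 to 8801 CPM with LUC, the highest in LUC library 2. Pf4, named only for its large part in this sum, had 2971 to 3282 CPM with Arid3a-FLAG and 3288 to 4984 CPM with LUC. It too was highest in LUC library 2. Of 14 tested erythroid markers 5 were higher, among them Kel (1.58, adjusted p = 0.00024), and 1 lower, 42.9% called. The sums were 496.1 to 630.4 CPM with Arid3a-FLAG and 331.8 to 383.7 CPM with LUC, and the band 3 gene Slc4a1 was at 0 in all libraries. Hba-x, 1 of the 5 and named only for its low level, averaged 0.0963 CPM with LUC. It passed the filter on low counts only through the Arid3a-FLAG libraries, at a mean of 1.71 CPM. Of 10 tested mast cell and basophil markers 3 were lower, among them Fcer1a (-1.24, adjusted p = 0.0015), and 0 higher, 30% called. The sums were 2153 to 2927 CPM with Arid3a-FLAG and 3022 to 3578 CPM with LUC, without overlap. Gata2, which blood progenitors also express, made up 47.6% to 59.2% of the sum with Arid3a-FLAG and 32.5% to 39.99% with LUC. Of 12 B cell markers, the cells in which ARID3A was first studied, 1 was tested, Ighm (0.19, adjusted p = 0.474), and Ms4a1, Ebf1, Igll1 and Rag1 were at 0 in every library; the sums were 17.9 to 19.2 CPM with Arid3a-FLAG and 12.8 to 19.3 CPM with LUC.

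Of 7 tested neutrophil, monocyte and macrophage markers 1 was higher, Csf1r (1.59, adjusted p = 0.003), and 2 were lower, Ctsg (-1.31, adjusted p = 0.0183) and Prtn3 (-1.01, adjusted p = 0.035). That is 42.9% called, against 7.29% of all genes. The sums were 35.1 to 54.8 CPM with Arid3a-FLAG and 37.2 to 42.2 CPM with LUC. Of 10 hepatocyte markers 1 was tested, Afp (-0.29, adjusted p = 0.245), and 4 were at 0 in all libraries; the sums were 16.3 to 20.4 CPM with Arid3a-FLAG and 20.3 to 27.3 CPM with LUC. Of 5 tested endothelial and stromal markers 1 was higher, Kdr (2.32, adjusted p = 0.007), and 1 lower, Pdgfrb (-1.37, adjusted p = 0.0218), 40% called. Kdr was scarce, at a mean of 1.78 CPM with Arid3a-FLAG and 0.345 CPM with LUC. Each LUC library was under the 0.599 CPM that the filter on low counts asks for, so Kdr was tested only through the Arid3a-FLAG libraries. The sums of the list were 94.1 to 122.5 CPM with Arid3a-FLAG and 119.5 to 147.1 CPM with LUC. The labelled tissue is fetal liver, in which hepatocyte markers were thus at traces while the megakaryocyte list summed to 7003 CPM or more in every library.

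**Figure D5:**
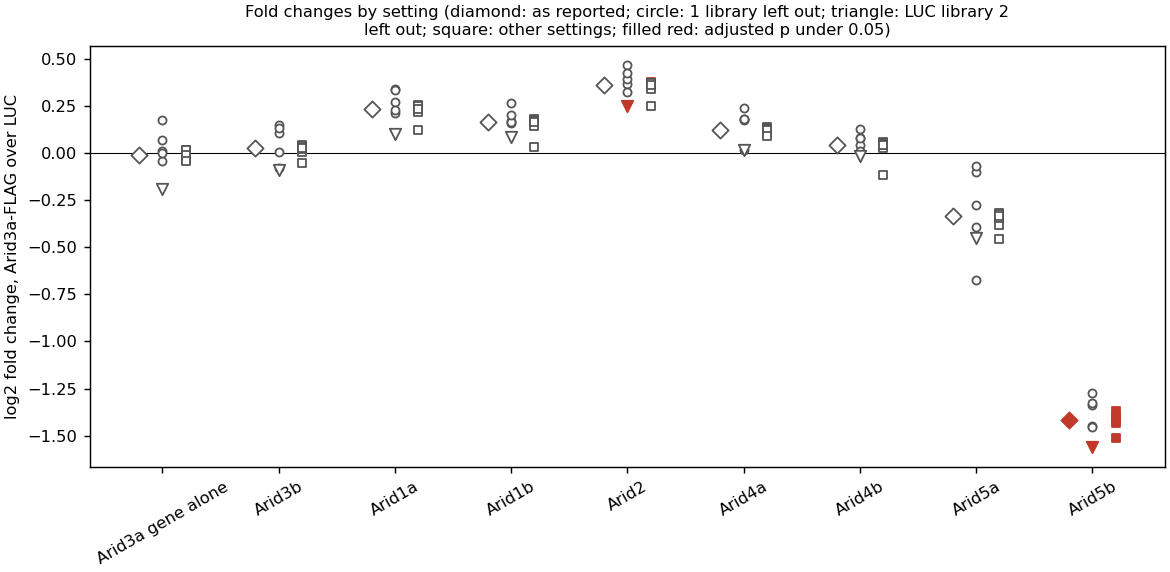
Log2 fold change of Arid3a-FLAG over LUC for each ARID gene as reported (diamond), with 1 library left out (circles; triangle for LUC library 2) and under other settings (squares); filled red marks an adjusted p under 0.05. Leaving out LUC library 2 lowers every gene's value, Arid2 becomes called at 0.25, and Arid5b stays between -1.56 and -1.28 with its call kept without that library and lost without any 1 of the others.

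Without LUC library 2, 4 of 9 members had a log2 fold change above 0, against 6 of 9 with all libraries, with 1 member called higher, Arid2, and 1 lower, Arid5b. In that fit 16.4% of all genes tested were called, 8.52% higher and 7.83% lower. The plot of fold changes by setting gives the members under each setting. Of all genes in each fit, the share called was 7.33% with RLE factors, 7.39% with upper quartile factors and also with the construct kept in the table, 8.13% with no filter, 8.18% with the 5 CPM filter, 11.5% with DESeq2, 7.42% with limma-voom, 6.90% with the replicate block and 9.20% with the exon length correction. With 1 library left out it ran from 1.66% to 16.4%.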

How the data were processed

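The authors deposited raw counts, whole numbers of reads per gene and library that had not been normalised. According to the submitters' processing notes, reads went through fastp, HISAT2 2.0.5 and featureCounts on mm10 (GRCm38); the sources used here give no tool settings, annotation release or strand use. Columns were matched to samples by description. GENCODE M21 supplied symbols and exon lengths, matching 53706 gene identifiers and leaving 95 without a symbol. The construct entry stayed outside the library sizes and the gene tests, and its CPM used unscaled totals.

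Arid3a-FLAG was set against LUC in R 4.3.3 by edgeR 4.0.16 (filterByExpr, TMM factors, quasi-likelihood F test, two-sided, group as sole term). P-values were adjusted by Benjamini-Hochberg over the 13631 genes, with a threshold of 0.05, and every adjusted p for which no tool is named comes from it. On simulated counts for 13451 genes it recovered 65.7% of 1.5-fold, 92.5% of 2-fold and 100% of 4-fold changes. The changes were placed only in genes above a set expected count, so these shares do not cover scarcer genes. The length trend of LUC library 2 was not simulated. Standard errors are the size of the log2 fold change over the square root of F, and 95% intervals use them. The alternatives used other factors (RLE, upper quartile), no filter or one of 5 CPM in 3 libraries, DESeq2 1.42.0, limma-voom 3.58.1, a replicate block, the construct kept in, each library omitted and, chosen after seeing the data, a correction for exon length. Paralogue ratios had an exact permutation test.

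The members and the 16 gene lists were chosen with earlier results of these data known. From each list up to 4 called genes with the smallest p were named or, with none called, the 2 most abundant; others are marked. Called list genes beyond these are counted without being named. Sequences of miRNAs and promoters are from RefSeq, and 3′ UTR sites from the longest GENCODE M21 3′ UTR of each gene.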

Additional observations from a re-analysis of the deposited data

How the results depend on the processing

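Genes called higher numbered 869 with no filter on low counts and 771 with DESeq2, and genes called lower 1076 with no filter, against 467 and 527 as reported; with 1 library left out they ran from 115 to 1191 higher and from 118 to 1095 lower, the most without LUC library 2 and the fewest without Arid3a-FLAG library 1. The Arid3a gene alone crossed 0 with no filter (0.0035), limma-voom (0.016) and the replicate block (0.019), and ran from -0.19 to 0.17 with 1 library left out. With the exon length correction Arid3b was -0.054, Arid4b -0.12 and Aebp2 -0.049. Arid2 passed with no filter (0.37). With 1 library left out, Arid3b ran from -0.091 to 0.15, Arid2 from 0.25 to 0.47, Arid4b from -0.015 to 0.13, Arid5b from -1.56 to -1.28, Rbbp7 from -0.15 to 0.048, Rbbp4 from -0.11 to 0.070 and the difference in the Arid3b to Arid3a ratio from -0.10 to 0.11. With longest transcripts the ranks per length became 6 for Arid3b in both groups, 5 for Arid4a and 4 for Arid4b with Arid3a-FLAG, and 2 for Arid2, 3 for Arid4b, 4 for Arid4a, 5 for Arid1b, 8 for Arid5a and 9 for Arid5b with LUC.

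List counts moved as follows. With no filter, 1 other ARID-domain gene, 2 let-7 axis genes and 8 erythroid markers were higher and 6 mast cell markers lower. With DESeq2, 1 other ARID-domain gene and 1 let-7 axis gene were higher, and 1 AT-rich DNA binder, 2 erythroid and 5 mast cell markers lower. With upper quartile factors 0 RB and E2F genes were higher and 1 AT-rich DNA binder lower, and with limma-voom 5 mast cell markers were lower. With at least 5 CPM, 3 erythroid and 0 endothelial markers were higher, and 0 let-7 axis genes and 1 neutrophil marker lower. With the exon length correction 1 ARID partner, 1 AT-rich DNA binder and 9 erythroid markers were higher and 1 AT-rich DNA binder lower. With 1 library left out, calls ran from 0 to 1 higher for other ARID-domain genes, RB and E2F genes, ARID partners and AT-rich DNA binders, 0 to 2 higher for SWI/SNF and the let-7 axis and 5 to 8 for erythroid markers; they ran from 0 to 1 lower for SWI/SNF, ARID partners, the let-7 axis, AT-rich DNA binders and endothelial markers, 0 to 4 for PRC2, 1 to 2 for erythroid, 3 to 6 for mast cell and 0 to 2 for neutrophil markers.

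With the replicate number as a block, 410 genes were higher and 530 lower, 0 RB and E2F genes were higher (Rb1, adjusted p = 0.0947) and 5 mast cell markers lower. Libraries with the same number deviated from their group means with correlations of -0.10, -0.11 and 0.12. Libraries with different numbers gave correlations from -0.18 to 0.21. With 3 libraries a group, these values cannot decide whether the numbers pair the samples. The cause of these shifts was not tested. At 10 to 45 counts a library, only large changes of Arid5a and Arid5b could be called.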
